A study of Mus musculus with 18 samples.

Results

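The comparison set 6 pups given Lactobacillus reuteri DSM 17938 against 6 given phosphate-buffered saline (PBS), with the difference taken within each of 2 times and averaged over them. Its members were the 12 arrays of these pups among the 18 arrays of the series, 3 in each group of agent and time. All pups were specific pathogen-free CD-1 mice, an outbred stock, of both sexes. They received 1 orogastric gavage of 50 uL PBS, alone or carrying 1e+08 colony-forming units of bacteria. Ileal epithelium was taken 4 h later from pups labelled 11 days old, or 24 h later from pups labelled 12 days old. The remaining 6 arrays, from pups given L. reuteri ATCC PTA 6475 at the same dose and times, helped to estimate the spread and served as a second reference. The PBS groups carried the same volume and gavage, so the bacteria were the only labelled difference. Epithelium from 24 sections per animal, cut along the last 4 cm of ileum, was lifted out by laser capture, and its RNA was measured on Illumina mouse bead arrays. Each array came from its own mouse, per the labels, so p-values measure the spread between pups.

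L. reuteri is a lactic acid bacterium of the mammalian gut, and DSM 17938 is a strain given to human infants as a probiotic. Enterocytes meet gut bacteria through Toll-like receptors, most of which use the adaptor Myd88, and through NOD receptors, which do not. Both families signal through the transcription factor NF-kB to antimicrobial peptides, C-type lectins of the Reg3 family and serum amyloid A proteins. The ileum of a suckling mouse is also a metabolic organ: it takes up milk fat, packs it into chylomicrons, makes citrulline and arginine, and expresses gluconeogenic enzymes that are lost or reduced around weaning.

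Epithelial RNA was present on all arrays compared, which does not measure the purity of the dissection. All 13 epithelial markers checked, among them Epcam, Cdh1 and Vil1, were detected on all 12 arrays, with a median difference of 0.01 between DSM 17938 and PBS pups. The mean bead signal of an array averaged 354.1 ± 28.71 (SD, n = 6) with DSM 17938 and 381.05 ± 68.52 (SD, n = 6) with PBS, and 20438 to 22848 probes were detected (exact two-sided permutation test within times, p = 0.4 for the mean signal and p = 0.93 for the number detected). Values below are log2 signals after background correction and quantile normalisation, and a difference is DSM 17938 minus PBS on that scale. Because an offset of 16 was added before the log, differences of dim genes are understated.

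No gene passed an adjusted p of 0.05 in limma over both times, out of 16835 genes and unnamed probes tested (0%). At an unadjusted p under 0.05 there were 1104 (6.56%), of which 595 were higher with DSM 17938 (3.53%) and 509 lower (3.02%). Scaling the arrays to a common median in place of quantile normalisation gave 452, with 168 higher and 284 lower, and put the median of all genes at -0.04. The counts at single times were 562 at 4 h (3.34%, with 1.66% higher and 1.68% lower) and 838 at 24 h (4.98%, with 2.55% higher and 2.42% lower), with 0 past the adjusted threshold at either. Effects that held at both times were few. At an unadjusted p under 0.05 at each time, 30 genes or probes were higher at both (0.178%), 20 were lower at both (0.119%) and 2 had opposite signs (0.0119%). The 3 DSM 17938 and 3 PBS pups did not overlap at either time for 52 that were higher at both (0.309%), 46 lower at both (0.273%) and 19 of opposite sign (0.113%). Over all tested, 59.3% had the same sign at both times, 31.2% above 0 at both and 28.2% below, which is the background for the counts of list members at both times below. The difference over both times was above 0 for 51.6% of all tested, the background for list counts above or below 0. At single times the median of all tested was 0.006 at 4 h and 0.0079 at 24 h. The genes named next were those with the smallest unadjusted p in each direction, so their values describe the top of the ranking.

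**Figure D1:**
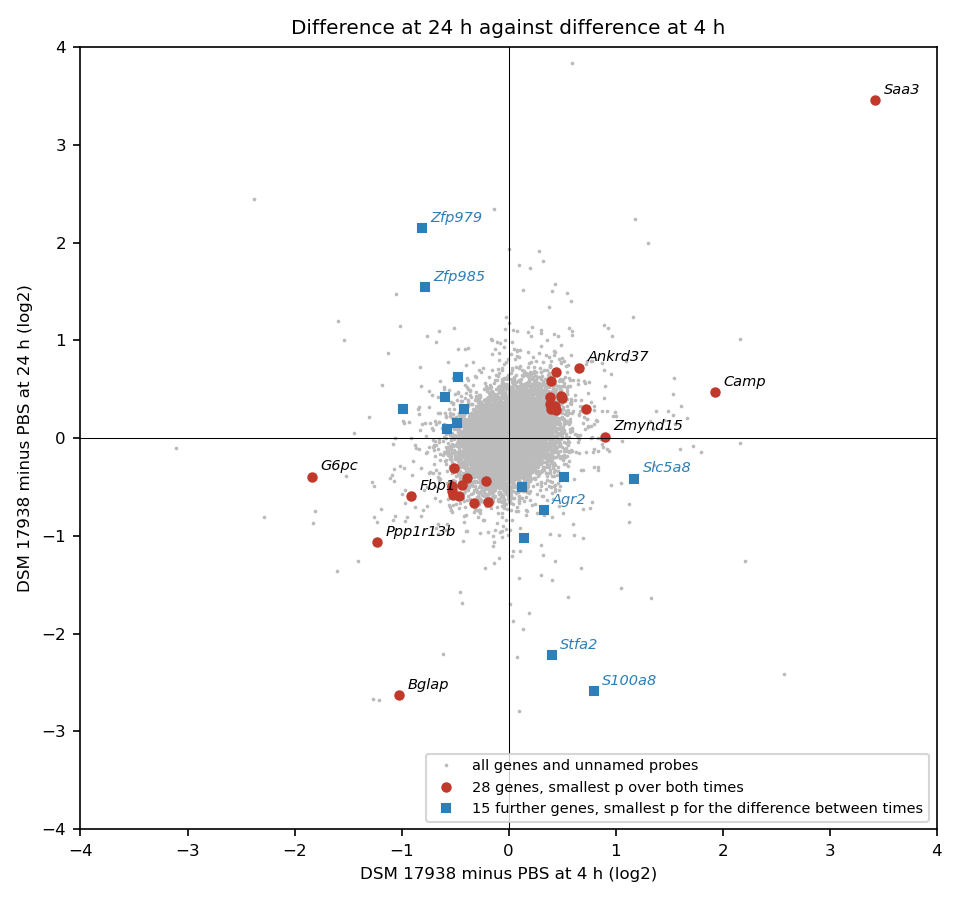
Each point is a gene or unnamed probe, with the difference between DSM 17938 and PBS at 4 h on the horizontal axis and at 24 h on the vertical axis, both in log2 units. Red points are the 28 genes with the smallest p over both times and blue squares 15 further genes with the smallest p for the difference between times. Saa3 stands apart at 3.43 and 3.45, whereas S100a8 lies at 0.80 and -2.59.

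Saa3 had the smallest p. It encodes a serum amyloid A, a family of small lipid- and retinol-binding proteins that mouse gut epithelium and macrophages release on contact with bacteria. At 4 h the DSM 17938 pups had log2 signals of 5.48, 10.48 and 9.15, and the PBS pups 5.10, 4.66 and 5.08. At 24 h the DSM 17938 pups had 8.52, 8.93 and 9.08, and the PBS pups 5.69, 5.49 and 5.0. The groups did not overlap at either time, but 1 of the 3 pups at 4 h, replicate 1, lay close to the PBS pups and below the highest PBS pup at 24 h. The difference was 3.44 ± 0.55 (SE, n = 6 against 6), a 10.8-fold higher signal, with 3.43 at 4 h and 3.45 at 24 h and an adjusted p of 0.179 in limma. Without replicate 1 of the DSM 17938 group at 4 h the difference was 4.16, and Saa3 passed with an adjusted p of 1.771e-07. Over all settings tried the adjusted p ran from 1.771e-07 to 0.7599 and the difference from 2.63 to 4.16. The probe was detected on all 12 arrays. The RefSeq promoter sequence below (GRCm38.p6, chr7:46715677-46715926, minus strand, the 250 bases before the start of Saa3, written 5′ to 3′ along the gene) is shown because this gene carried the largest difference among the 28. Capitals mark the only match, on either strand, to TTGCNNAA, the letters bound by C/EBP factors, 99 bases before the start. The same letters occur in 9.55% of 27025 mouse promoters of this length, and a match does not show that a factor binds there.
Saa3: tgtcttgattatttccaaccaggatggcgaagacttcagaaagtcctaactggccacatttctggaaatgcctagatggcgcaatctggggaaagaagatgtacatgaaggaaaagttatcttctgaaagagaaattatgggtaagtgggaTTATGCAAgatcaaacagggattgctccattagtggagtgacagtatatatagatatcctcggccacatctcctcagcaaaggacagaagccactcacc

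Of the 7 acute phase genes tested, 7 had a difference above 0, and 1, Saa3, had an unadjusted p under 0.05. The list's median was 0.18, beside 0.01 over all genes. Lcn2, lipocalin 2, which binds bacterial siderophores, differed by 0.83 ± 0.43 (SE), and Lbp, which binds lipopolysaccharide, by 0.57 ± 0.50 (SE). Single pups moved both: Lcn2 differed by 0.41 without replicate 2 and 1.30 without replicate 1 of DSM 17938 at 4 h, and Lbp by 0.27 without replicate 1 and 0.95 without replicate 3 of PBS at 4 h. Saa1, the liver-type paralogue, differed by 0.03 ± 0.13 (SE), but was detected in only 2 of 6 DSM 17938 pups and 1 of 6 PBS pups. Apcs, serum amyloid P, was detected in 1 of 6 in each group. None of the 6 genes beside Saa3 had an unadjusted p under 0.05.

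Camp, the precursor of cathelicidin, an antimicrobial peptide of epithelia and neutrophil granules, came next among genes with large differences. Its signals at 4 h were 8.79, 9.76 and 8.82 with DSM 17938 and 6.75, 7.84 and 7.0 with PBS. At 24 h they were 8.64, 8.48 and 7.49 against 8.18, 7.67 and 7.34. The groups were apart at 4 h and overlapped at 24 h. The difference was 1.20 ± 0.26 (SE, n = 6 against 6), made up of 1.93 at 4 h and 0.47 at 24 h, with an adjusted p of 0.748 in limma. At 4 h, 9 of the 11 neutrophil granule genes tested were above 0, Camp included, with a median of 0.29, and at 24 h 4 were above 0, with a median of -0.46. At 4 h Lcn2 differed by 1.38, Ltf, lactoferrin, by 1.05, S100a8 by 0.80 and Stfa2 by 0.41. The other members lay lower, with Csf3r at 0.29, S100a9 at 0.19, Mmp9 at 0.15, Stfa1 at 0.10, Retnlg at -0.02 and Elane at -0.12. Only Camp, Lcn2 and Ltf had an unadjusted p under 0.05 in limma at 4 h. Ltf was chosen after its value was seen. Over both times 5 were above 0 and 6 below, with a median of -0.02. The mean log2 level of that list at 4 h was 5.50 to 6.41 in DSM 17938 pups and 5.24 to 5.57 in PBS pups, and over both times 5.46 to 6.41 and 5.24 to 7.16. The part of neutrophils in the Camp signal was not tested. In bulk samples, more cells of a type and more RNA per cell cannot be told apart.

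Among antimicrobial peptides and lectins, 15 of 19 genes tested were above 0, 11 of them at both times, and 3 had an unadjusted p under 0.05, all higher. The list's median was 0.36, with 0.45 at 4 h and 0.38 at 24 h. It was 0.15 without replicate 2 and 0.54 without replicate 1 of the DSM 17938 group at 4 h. The levels still overlapped: the mean log2 level of the list was 7.26 to 8.73 in DSM 17938 pups and 7.19 to 8.32 in PBS pups. Reg3g, a C-type lectin that kills Gram-positive bacteria, had 6.57, 10.14 and 9.30 at 4 h against 5.52, 6.64 and 7.36, and 7.77, 8.98 and 10.51 at 24 h against 7.67, 8.46 and 8.09. As with Saa3, replicate 1 was the lowest of the DSM 17938 pups at 4 h. Its difference was 1.59 ± 0.57 (SE), with an adjusted p of 0.748 in limma. Ang4, an angiogenin of Paneth cells, had a difference of 1.07 ± 0.47 (SE), with 0.32 at 4 h and 1.81 at 24 h. At 24 h its 3 DSM 17938 pups (9.70, 9.97 and 9.64) lay above its 3 PBS pups (8.42, 8.53 and 6.92). The Paneth cell list shares Ang4, Itln1, Lyz1 and Pla2g2a with the antimicrobial peptides and lectins, so the 2 counts are not separate. It had 9 of 9 genes above 0 and a median of 0.24. Next by p were Itln1, an intelectin (0.56 ± 0.37, SE), Lyz1, lysozyme (0.53 ± 0.34, SE), and Sox9 (0.24 ± 0.13, SE), whose second probe differed by -0.02. Leaving out single arrays moved these from 0.33 to 0.85 for Itln1, 0.20 to 0.73 for Lyz1 and 0.13 to 0.30 for Sox9. Pla2g2a, a secreted phospholipase outside the naming rule, had the largest difference of the list, 1.08 ± 0.99 (SE).

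The epithelial oxidases make hydrogen peroxide or superoxide at the mucosal surface. The oxidases Duox1, Duox2 and Nox1 themselves were not among the genes tested. The 5 genes of this list that were tested encode their partner proteins and Nos2. Over both times all 5 were above 0, and 1, Noxo1, had an unadjusted p under 0.05 in limma. The median was 0.49, with 0.49 at 4 h, where all 5 were above 0, and 0.19 at 24 h, where 3 were above and 2 below. Noxo1, the organiser subunit of the NADPH oxidase Nox1, had 10.45, 11.17 and 11.03 at 4 h against 10.63, 10.06 and 10.48, and 11.01, 10.54 and 11.09 at 24 h against 10.40, 10.54 and 10.21. At each time 2 of the 3 DSM 17938 pups exceeded all 3 PBS pups. The difference was 0.49 ± 0.14 (SE), equal at the 2 times. Duoxa2, the maturation factor of the oxidase Duox2, differed by 1.80 at 4 h and -0.14 at 24 h. Noxa1, the activator subunit of Nox1, differed by 0.98 and 0.22. Cyba, a subunit of NADPH oxidases, differed by 0.23 over both times, and Nos2, which makes nitric oxide, was detected in 3 of 6 DSM 17938 pups and 1 of 6 PBS pups.

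**Figure D2:**
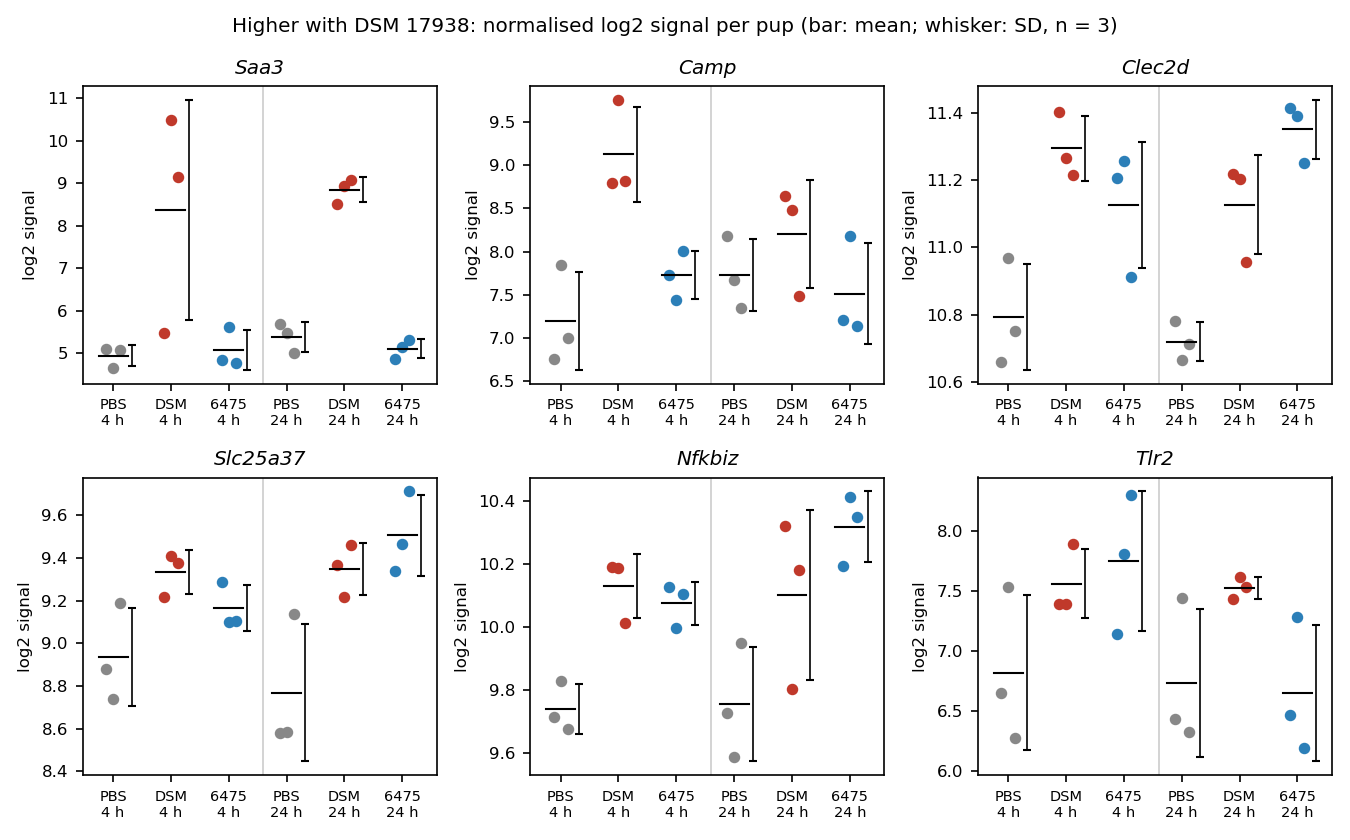
Normalised log2 signal in each pup for 6 genes that were higher with DSM 17938 than with PBS, with one point per pup, bars for means and whiskers for SD (n = 3). The Saa3 signals of the DSM 17938 pups reach 10.48 and leave out 1 pup at 5.48, and the Saa3 signals of the ATCC PTA 6475 pups stay between 4.78 and 5.62.

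The receptors and adaptors that sense bacteria were above 0 in 17 of 23 genes, with 4 higher and 1 lower at an unadjusted p under 0.05 and a median of 0.12. Under median scaling this list had 14 genes above 0 and 9 below, with 1 higher and 2 lower. Tlr2, the receptor for bacterial lipoproteins, had 7.39, 7.39 and 7.89 at 4 h against 6.65, 7.53 and 6.28, and 7.43, 7.61 and 7.53 at 24 h against 6.43, 7.44 and 6.33. Its DSM 17938 pups lay between 7.39 and 7.89, whereas the PBS pups ran from 6.28 to 7.53, and the difference was 0.76 ± 0.26 (SE). Nod1, a sensor of peptidoglycan, differed by 0.29 ± 0.10 (SE). Myd88, the adaptor of most Toll-like receptors, differed by 0.22 ± 0.08 (SE), with no overlap of the groups at either time. Casp4, the caspase that senses cytosolic lipopolysaccharide, differed by 0.65 at 4 h and -0.04 at 24 h. The 1 lower gene was Ticam1, another adaptor of Toll-like receptors, at -0.30 ± 0.12 (SE), with -0.33 at 4 h and -0.27 at 24 h.

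Nfkbiz encodes IkB-zeta, a nuclear cofactor of NF-kB that is induced through Toll-like receptors. It had 10.19, 10.19 and 10.01 at 4 h against 9.72, 9.83 and 9.68, and 10.32, 9.80 and 10.18 at 24 h against 9.73, 9.59 and 9.95. The groups were apart at 4 h, and 1 DSM 17938 pup at 24 h lay inside the PBS range. Its difference was 0.37 ± 0.10 (SE), with 0.39 and 0.35 at the 2 times. Of the 19 NF-kB subunits and targets tested, 13 were above 0 and 6 below over both times, with a median of 0.08. At an unadjusted p under 0.05 in limma 2 were higher and 1 lower. At 4 h 14 were above 0 (median 0.12), and at 24 h 9 were above and 10 below (median -0.03). Ikbke, a kinase of the pathway, differed by 0.30 ± 0.13 (SE), and Bcl3, another nuclear cofactor, by -0.27 ± 0.12 (SE). Median scaling left none of the 19 at an unadjusted p under 0.05. Among chemokines and cytokine signals 17 of 24 were above 0, with Il15, which sustains intraepithelial lymphocytes, at 0.32 ± 0.13 (SE; other probes -0.02 and 0.44) and Ccl17, a T cell chemokine detected in 2 of 6 DSM 17938 and 5 of 6 PBS pups, at -0.32 ± 0.13 (SE). Over both times the interferon-stimulated genes were split, 10 above and 10 below, with 14 above at 4 h and 10 at 24 h.

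The 14 higher genes with the smallest p included Saa3, Camp and Nfkbiz and covered several further functions. Clec2d encodes a C-type lectin-like ligand of NKR-P1 receptors on lymphocytes. It had 11.40, 11.27 and 11.21 at 4 h against 10.66, 10.97 and 10.75, and 11.22, 11.20 and 10.96 at 24 h against 10.78, 10.67 and 10.71. The groups did not overlap at either time, and the difference was 0.45 ± 0.09 (SE), with an adjusted p of 0.695 in limma. For Slc25a37 (mitoferrin 1, a mitochondrial iron importer), Plekha2 (which binds a phosphoinositide), Pik3r1 (the regulatory subunit of phosphoinositide 3-kinase) and Themis3 (a Themis family member), all 6 DSM 17938 pups exceeded all 6 PBS pups. Such separation upwards was found for 22 genes or probes (0.131%). Slc25a37 ran from 9.22 to 9.46 with a median of 9.37 in DSM 17938 pups and from 8.58 to 9.19 with a median of 8.81 in PBS pups, a difference of 0.49 ± 0.12 (SE). The differences were 0.35 ± 0.09 (SE) for Plekha2, 0.40 ± 0.11 (SE) for Pik3r1 (other probes 0.43 and 0.09) and 0.51 ± 0.14 (SE) for Themis3.

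The remaining higher genes differed by 0.37 to 0.69. Ankrd37, an ankyrin repeat protein induced by low oxygen, differed by 0.69 ± 0.17 (SE), with 0.66 at 4 h and 0.72 at 24 h. Cfl1, cofilin, which severs actin filaments, differed by 0.56 ± 0.15 (SE). Ddit4l, an inhibitor of mTOR signalling, differed by 0.46 ± 0.11 (SE), with 0.49 and 0.43 at the 2 times. Creb3, a transcription factor held in the endoplasmic reticulum membrane, differed by 0.38 ± 0.09 (SE) without overlap at either time, but a second probe of the gene differed by -0.08. Auts2, a nuclear regulator of transcription, differed by 0.37 ± 0.09 (SE), and its 3 other probes by 0.22, -0.13 and -0.19. Zmynd15, a zinc finger protein known from sperm development, was the exception in time, with 0.90 at 4 h and 0.01 at 24 h, and its second probe differed by 0.03 over both times.

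On the lower side, 2 gluconeogenic enzymes were among the 14 genes with the smallest p. G6pc, which encodes the enzyme that releases free glucose from its phosphate, had 8.90, 7.08 and 7.82 at 4 h against 9.64, 9.51 and 10.15, and 8.56, 9.78 and 8.85 at 24 h against 9.80, 9.19 and 9.38. The groups were apart at 4 h and overlapped at 24 h. The difference was -1.12 ± 0.27 (SE), with -1.84 at 4 h and -0.39 at 24 h, and an adjusted p of 0.748 in limma. Fbp1, fructose-1,6-bisphosphatase, had 8.78, 8.27 and 8.78 at 4 h against 9.96, 9.33 and 9.27, and 8.12, 8.93 and 8.35 at 24 h against 9.57, 8.59 and 9.04. At 24 h 1 DSM 17938 pup lay inside the PBS range, and the difference was -0.75 ± 0.19 (SE). Pck1, cytosolic phosphoenolpyruvate carboxykinase, the entry step of the pathway, had 5.56, 5.05 and 4.87 against 6.91, 5.61 and 6.73, and 5.45, 6.51 and 6.33 against 6.36, 6.62 and 6.81. Here too the groups were apart at 4 h only. Its difference was -0.87 ± 0.26 (SE), with -1.25 and -0.49 at the 2 times, and a second probe differed by -0.32.

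Of the 8 genes of the gluconeogenesis list tested, 7 were below 0 and 3, those just described, had an unadjusted p under 0.05. The list's median was -0.17, with -0.43 at 4 h and -0.02 at 24 h. Slc37a4, the glucose-6-phosphate transporter, differed by -0.34 at 4 h and 0.12 at 24 h, and Creb3l3, a transcription factor of fasting metabolism, by -0.52 and 0.12. Fbp2, the muscle-type isoenzyme of Fbp1, differed by -0.07 over both times. Ppargc1a, a coactivator of these genes, was the member above 0, at 0.50 ± 0.53 (SE). The RefSeq promoters of the 3 enzymes (GRCm38.p6, the 250 bases before each start, 5′ to 3′ along the gene) are shown for comparison with each other, because their genes were lower together at 4 h. They lie at chr11:101367466-101367715, plus strand (G6pc), chr2:173152823-173153072, plus strand (Pck1) and chr13:62888283-62888532, minus strand (Fbp1). Capitals mark matches to TNACGTNA, a palindrome that covers the cyclic AMP response element, searched on both strands. It occurs in 3.99% of the 27025 promoters. G6pc holds TTACGTAA 162 bases before its start, Pck1 holds TTACGTCA 93 bases before, and no match was found in these letters of Fbp1. None of the 3 holds TTGCNNAA. The letters were chosen after the sequences had been read, and a match is a description only.
G6pc: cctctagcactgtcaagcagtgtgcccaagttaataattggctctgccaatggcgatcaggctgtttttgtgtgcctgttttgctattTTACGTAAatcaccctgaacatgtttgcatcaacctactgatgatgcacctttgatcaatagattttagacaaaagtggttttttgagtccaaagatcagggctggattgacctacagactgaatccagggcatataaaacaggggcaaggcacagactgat
Pck1: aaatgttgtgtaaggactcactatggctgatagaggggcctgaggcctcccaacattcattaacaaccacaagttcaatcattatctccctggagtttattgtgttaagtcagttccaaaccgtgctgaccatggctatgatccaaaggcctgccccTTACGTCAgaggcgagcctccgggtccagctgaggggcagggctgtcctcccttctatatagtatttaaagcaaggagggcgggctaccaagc
Fbp1: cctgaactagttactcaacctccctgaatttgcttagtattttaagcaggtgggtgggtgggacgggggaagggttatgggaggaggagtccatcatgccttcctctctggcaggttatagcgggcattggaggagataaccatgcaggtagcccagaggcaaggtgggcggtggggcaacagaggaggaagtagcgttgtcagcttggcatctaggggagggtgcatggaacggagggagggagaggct

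**Figure D3:**
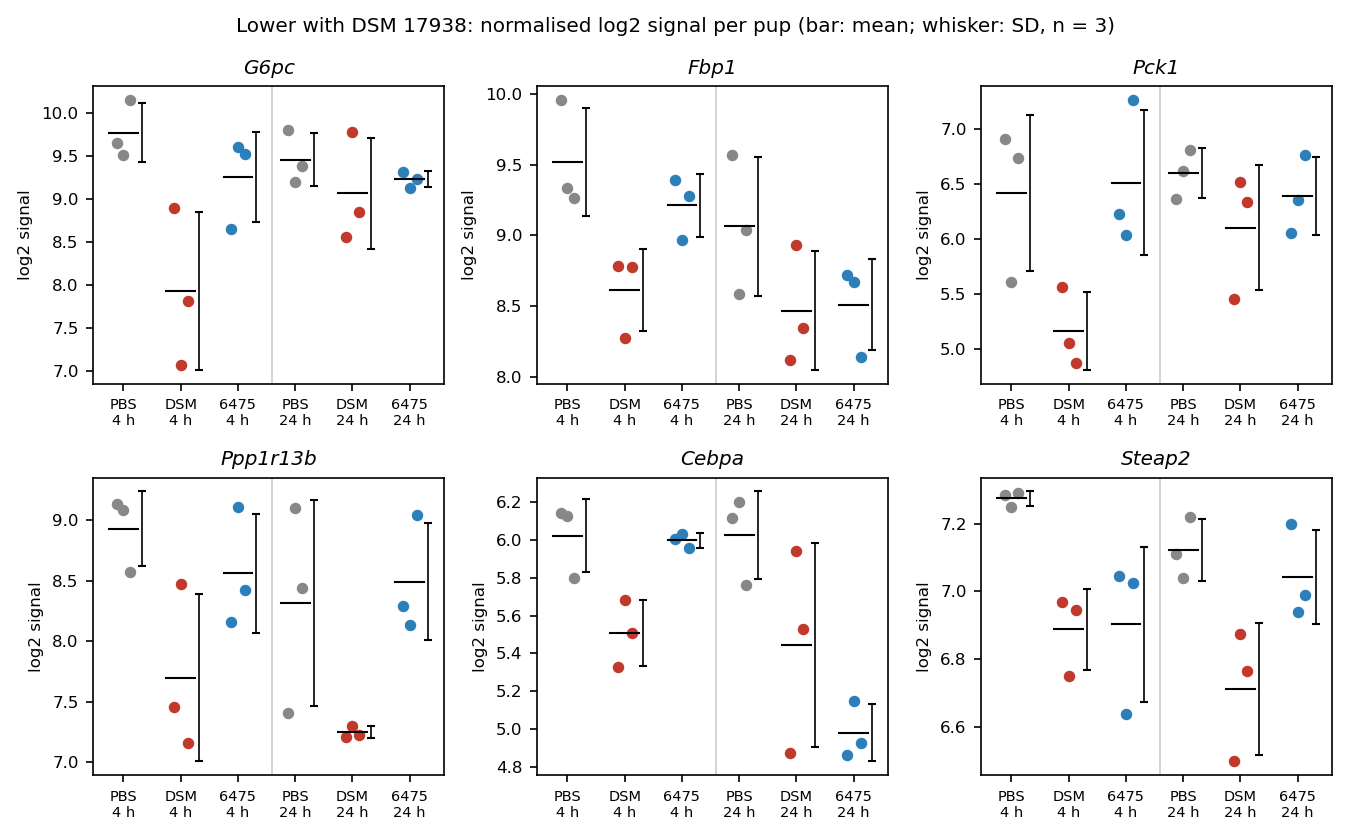
Normalised log2 signal in each pup for 6 genes that were lower with DSM 17938 than with PBS, with one point per pup, bars for means and whiskers for SD (n = 3). G6pc, Fbp1 and Pck1 are apart from PBS at 4 h and overlap with it at 24 h, whereas all 6 DSM 17938 pups lie below all 6 PBS pups for Steap2.

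Ppp1r13b had the smallest p on the lower side. It encodes ASPP1, a partner of the tumour suppressor p53. Its signals were 7.46, 8.47 and 7.16 at 4 h against 9.13, 9.08 and 8.57, and 7.21, 7.30 and 7.23 at 24 h against 7.41, 9.10 and 8.44. The groups did not overlap at either time, and the difference was -1.15 ± 0.28 (SE), with -1.23 and -1.07 at the 2 times. For Steap2, a metalloreductase of iron and copper, Nudt9, an ADP-ribose hydrolase, and Sephs2, which makes selenophosphate for selenoproteins, all 6 DSM 17938 pups lay below all 6 PBS pups. Such separation downwards was found for 13 genes or probes (0.0772%). Steap2 ran from 6.50 to 6.97 with a median of 6.81 in DSM 17938 pups and from 7.04 to 7.29 with a median of 7.24 in PBS pups, a difference of -0.40 ± 0.10 (SE). Nudt9 and Sephs2 differed by -0.41 ± 0.11 (SE) and -0.53 ± 0.15 (SE).

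Cebpa encodes the transcription factor C/EBP-alpha, which drives metabolic genes in liver and fat. It was 5.33, 5.68 and 5.51 at 4 h against 6.14, 6.12 and 5.80, and 4.87, 5.94 and 5.53 at 24 h against 6.12, 6.20 and 5.76. The groups were apart at 4 h, with 1 pup inside the PBS range at 24 h, and the difference was -0.55 ± 0.15 (SE). Bglap, osteocalcin, known from bone, was spread widely, with -1.02 at 4 h, -2.63 at 24 h and a PBS pup at 9.87 beside others at 5.76 to 7.68. Its difference was -1.83 ± 0.51 (SE), and a second probe differed by -0.42. Also among the 14 were Coa8, an assembly factor of cytochrome c oxidase (-0.54 ± 0.15, SE), and Mrps18a, a mitochondrial ribosomal protein (-0.33 ± 0.09, SE). Tspan15, a tetraspanin partner of the protease ADAM10, differed by -0.51 ± 0.13 (SE), and Eva1a, a regulator of autophagy, by -0.46 ± 0.13 (SE). Tent2, a poly(A) polymerase, and Lpar2, a receptor for lysophosphatidic acid, differed by -0.43 ± 0.11 (SE) and -0.49 ± 0.14 (SE), and were detected in 5 and 4 of the 6 DSM 17938 pups. Second probes of these genes lay near 0, at -0.06 for Tent2 and -0.04 for Lpar2. Among genes with an unadjusted p under 0.05 at each time, Nt5c2, a purine nucleotidase, differed by -0.36 ± 0.10 (SE), while a second probe differed by -0.01. Kcnq3, a potassium channel subunit, was not detected in any DSM 17938 pup and in 3 of 6 PBS pups, and was at least 1.04-fold lower.

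The fat absorption and chylomicron genes were below 0 in 15 of 17 cases, 13 of them at both times, and 5 had an unadjusted p under 0.05, all lower. The median was -0.22, with -0.37 at 4 h and -0.16 at 24 h. Under median scaling, which moved the median of all genes to -0.04, 16 of 17 were below 0 and 2 had an unadjusted p under 0.05. Apoa1, an apolipoprotein of chylomicrons and high-density lipoprotein, had 13.84, 13.98 and 14.45 at 4 h against 14.50, 14.34 and 14.86, and 14.35, 14.52 and 14.40 at 24 h against 14.77, 14.42 and 14.35. The pups overlapped at both times, and the difference was -0.28 ± 0.12 (SE). Plin2, which coats lipid droplets, differed by -0.56 ± 0.24 (SE), and Plin3, a second droplet coat, by -0.30 ± 0.13 (SE). Dgat2, the last step of triglyceride synthesis, differed by -0.31 ± 0.13 (SE). No gene of this list passed an adjusted p of 0.05 in limma.

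Arginine and proline synthesis had 8 of 10 genes below 0, with 3 at an unadjusted p under 0.05, all lower, and a median of -0.07. Ass1, argininosuccinate synthase, had 10.43, 10.42 and 10.40 at 4 h against 11.24, 10.44 and 10.93, and 10.70, 10.82 and 10.61 at 24 h against 11.00, 10.82 and 11.10. Below the lowest PBS pup of their time lay 5 of the 6 DSM 17938 pups, and the difference was -0.36 ± 0.12 (SE). Asl, argininosuccinate lyase, the next step, differed by -0.54 ± 0.20 (SE), and its second probe by -0.53. Oat, ornithine aminotransferase, differed by -0.21 ± 0.10 (SE). Genes typical of suckling enterocytes, a list that shares Ass1, were below 0 in 13 of 18 cases, with a median of -0.26 at 4 h and 0.05 at 24 h. Folr1, a folate receptor, differed by -0.33 ± 0.13 (SE), Glb1, lysosomal beta-galactosidase, by -0.30 ± 0.15 (SE), and Prdm1, the repressor known to hold mouse gut in the suckling state, by 0.30 ± 0.15 (SE). Other probes of Glb1 differed by 0.07 and 0.21, in the opposite direction, and one of Prdm1 by 0.0020.

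Other lists of energy metabolism were mostly below 0 over both times, with no member at an unadjusted p under 0.05. Cholesterol synthesis had 15 of 18 genes below 0 (median -0.16), oxidative phosphorylation 17 of 19 (median -0.10), fatty acid oxidation and ketogenesis 12 of 16 (median -0.10), and the tricarboxylic acid cycle 12 of 16 (median -0.06). Glycolysis had 8 of 13 below 0 (median -0.08). The times differed: 10 cholesterol synthesis genes were below 0 at 4 h (median -0.02) and 17 at 24 h (median -0.24), 9 of them at both. Those below 0 at 4 h and 24 h were 8 and 12 for the tricarboxylic acid cycle and 6 and 9 for glycolysis. They were 13 and 16 for oxidative phosphorylation, and 14 and 10 for fatty acid oxidation and ketogenesis. Median scaling put oxidative phosphorylation at -0.18 and cholesterol synthesis at -0.22, but also moved the median of all genes to -0.04.

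**Figure D4:**
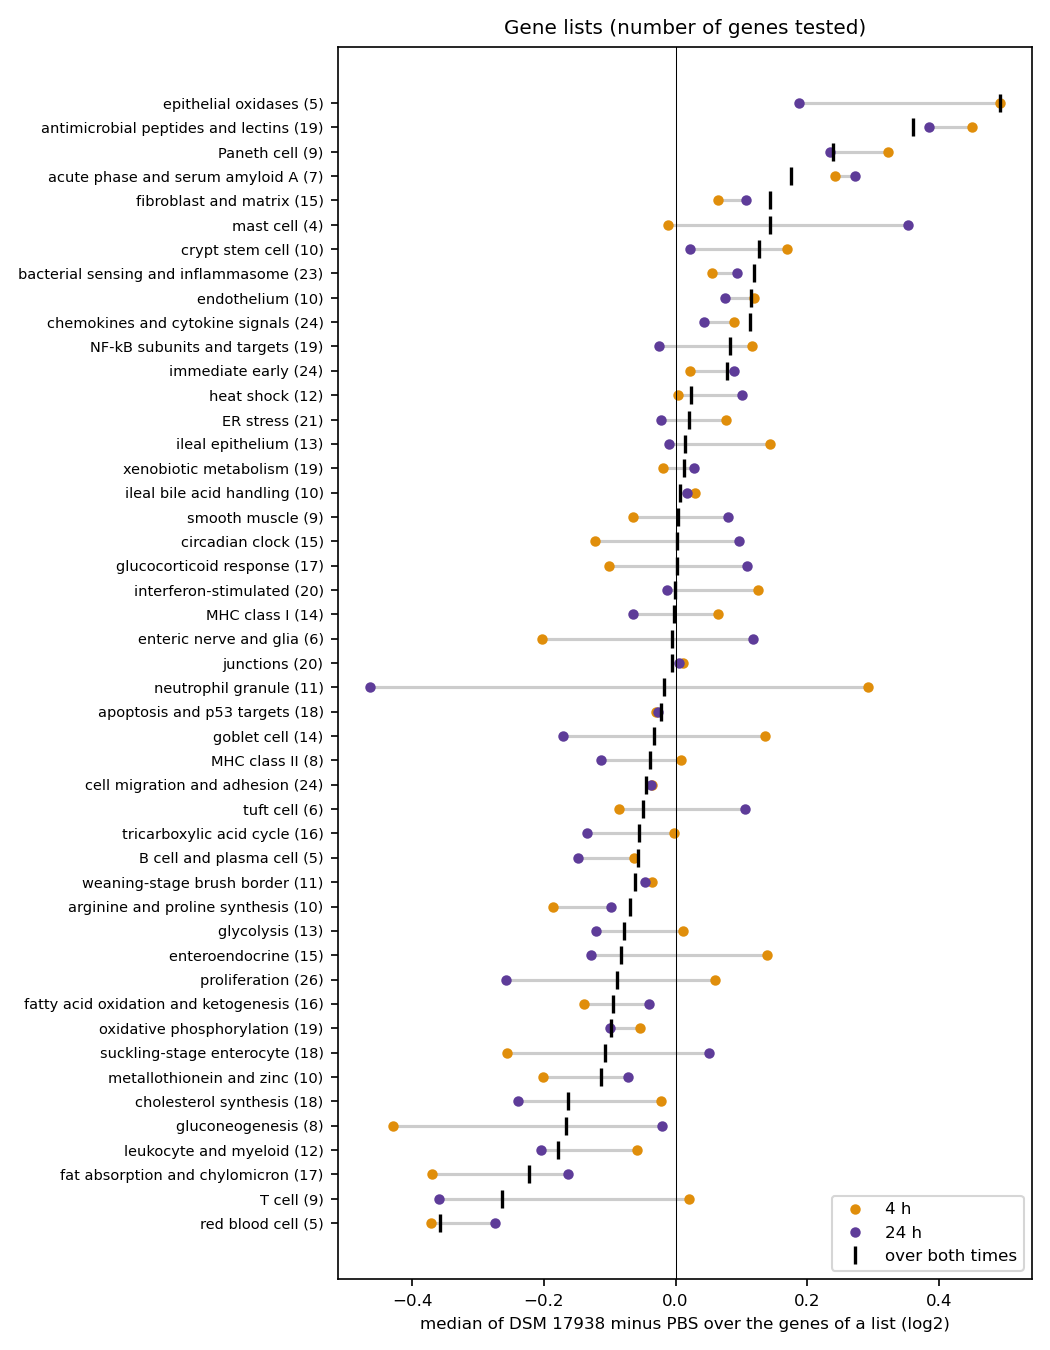
Median difference between DSM 17938 and PBS over the genes of each of 47 lists at 4 h, at 24 h and over both times, in log2 units. Antimicrobial peptides (0.45 and 0.38) lie right of 0 and fat absorption genes (-0.37 and -0.16) left of 0 at both times, whereas neutrophil granule genes lie on opposite sides (0.29 and -0.46).

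Single genes of the other lists completed the picture. Hspa1a, an inducible heat shock protein, differed by 0.62 ± 0.21 (SE), but a second probe differed by -0.35, in the opposite direction. Chac1, which degrades glutathione under endoplasmic reticulum stress, differed by 0.48 ± 0.22 (SE). Sgk1 and Fkbp5, both induced by glucocorticoids, differed by -0.42 ± 0.14 (SE) and -0.29 ± 0.13 (SE). Over both times the 17 genes of that list were split, 9 above 0 and 8 below. By time, 1 was above 0 and 16 below at 4 h (median -0.10). At 24 h 12 were above and 5 below (median 0.11). Bcl2l1, which protects from apoptosis, differed by -0.51 ± 0.18 (SE), and Bbc3, which promotes it, by 0.39 ± 0.17 (SE). A second probe of Bcl2l1 differed by -0.11, and those of Bbc3 by -0.05 and 0.14. Abcc3 and Abcc2, exporters of conjugates at the basolateral and apical membrane, differed by 0.36 ± 0.13 (SE) and -0.53 ± 0.25 (SE). Gsta1, a glutathione transferase, differed by -0.80 ± 0.27 (SE), and its other probes by 0.09 and -0.12. Fabp6, the ileal bile acid binding protein, differed by 0.93 ± 0.70 (SE), which was within the spread between pups. Junction genes were split, 9 above 0 and 11 below, and none had an unadjusted p under 0.05.

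Markers of other cells that the dissection could hold are given for comparison. Leukocyte and myeloid markers were above 0 in 5 of 12 genes (median -0.18), with a mean log2 level of 7.26 to 7.87 in DSM 17938 pups and 7.30 to 7.91 in PBS pups. T cell markers were above 0 in 2 of 9 (median -0.26), with levels of 6.38 to 6.56 and 6.28 to 7.08. Itgae, the integrin of intraepithelial lymphocytes, was 1 of those 2, at 0.53 ± 0.18 (SE), with other probes at 0.61, -0.04 and -0.04. Red blood cell genes were below 0 in 5 of 5 (median -0.36), with levels of 9.06 to 9.52 and 8.90 to 10.35. Fibroblast and matrix genes were above 0 in 12 of 15 (median 0.14), and none of them had an unadjusted p under 0.05. All 15 were detected on all 12 arrays, with levels of 10.13 to 10.62 and 9.78 to 10.68. Smooth muscle genes, 7 of 9 detected on all 12 arrays, had levels of 9.97 to 10.44 and 9.74 to 10.47. The epithelial markers had 10.94 to 11.37 and 10.89 to 11.29, so RNA of other cells was present beside that of epithelium. The levels overlapped between the groups for the lists whose ranges are given, and their part in the differences above was not tested.

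No gene passed an adjusted p of 0.05 in limma for a difference between the effect at 24 h and that at 4 h, and 372 had an unadjusted p under 0.05 (2.21%, with 1.07% higher at 24 h and 1.14% lower). Agr2, a disulfide isomerase of goblet cells, had the smallest p, with 0.33 at 4 h and -0.74 at 24 h (adjusted p 0.9997). Its DSM 17938 pups had 6.24, 6.66 and 6.49 at 4 h and 5.61, 5.98 and 6.24 at 24 h, and its PBS pups 6.27, 6.12 and 6.01, then 6.38, 6.93 and 6.73. Clca1, a secreted goblet cell protein, had 0.52 and -0.39. S100a8, a calprotectin subunit of neutrophils, had 0.80 and -2.59, and Stfa2, a stefin of the same cells, 0.41 and -2.22. For both, PBS replicate 1 at 24 h was the highest of the 12 arrays, at 9.24 and 8.33. S100a8 was detected in 5 of 6 pups of each agent, and Stfa2 in 4 of 6 DSM 17938 and 5 of 6 PBS pups. Slc5a8, a transporter of short-chain fatty acids, had 1.18 at 4 h and -0.42 at 24 h. Spc24, a kinetochore protein, had 0.13 and -0.50, and Dnph1, a nucleotide hydrolase, 0.14 and -1.02.

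In the opposite direction Igsf9, an immunoglobulin superfamily protein, had -0.57 at 4 h and 0.10 at 24 h, Ctsk, cathepsin K, -0.42 and 0.30, and Sema7a, a membrane-bound semaphorin, -0.47 and 0.62. Nme5, of the nucleoside diphosphate kinase family, had -0.60 and 0.42, and Gda, guanine deaminase, was detected in 1 DSM 17938 pup and 2 PBS pups. Fibcd1, a receptor for acetylated sugars such as chitin, had -0.98 and 0.30. The zinc finger genes Zfp985 and Zfp979 had -0.78 and 1.55, and -0.81 and 2.15. Their signals lay at separate levels: Zfp985 stood between 6.11 and 6.57 in 8 pups and between 4.48 and 4.64 in 4 pups, of which 3 were the PBS pups at 24 h, and its probe was detected in 5 of 6 DSM 17938 and 3 of 6 PBS pups. Of the 28 genes named over both times, 3 (Camp, Zmynd15 and G6pc) had an unadjusted p under 0.05 for a difference between times, and each was farther from PBS at 4 h.

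The same DSM 17938 pups were set against the ATCC PTA 6475 pups, so both comparisons below share the DSM 17938 arrays, and the 28 genes had been ranked with those arrays. No gene passed an adjusted p of 0.05 in limma, and 624 had an unadjusted p under 0.05 (3.71%, with 1.95% higher and 1.75% lower). Saa3 had the lowest adjusted p, 0.1394: the ATCC PTA 6475 pups had 4.84, 5.62 and 4.78 at 4 h and 4.88, 5.14 and 5.32 at 24 h, within the range of the PBS pups, and the difference was 3.51 ± 0.55 (SE). Camp differed by 1.04 ± 0.26 (SE) between the strains, Noxo1 by 0.44 ± 0.14 (SE) and Reg3g by 1.32 ± 0.57 (SE). On the lower side Ppp1r13b differed by -1.05 ± 0.28 (SE), G6pc by -0.75 ± 0.27 (SE) and Pck1 by -0.82 ± 0.26 (SE). For other genes the strains differed by less than the standard error: Clec2d by -0.03 ± 0.09 (SE), Pik3r1 by 0.03 ± 0.11 (SE), Slc25a37 by 0.01 ± 0.12 (SE) and Nfkbiz by -0.08 ± 0.10 (SE). Cebpa differed by -0.01 ± 0.15 (SE) over both times, but its ATCC PTA 6475 pups had 6.01, 6.03 and 5.96 at 4 h and 4.86, 5.15 and 4.93 at 24 h, above the DSM 17938 pups at 4 h. Of the 14 higher genes, 11 were also above and 6 had an unadjusted p under 0.05 against ATCC PTA 6475. Of the 14 lower genes, 12 were also below and 4 had an unadjusted p under 0.05. The list medians between strains were 0.29 for antimicrobial peptides and lectins, 0.44 for epithelial oxidases and -0.23 for gluconeogenesis. They were -0.03 for fat absorption, 0.02 for arginine and proline synthesis, -0.07 for Paneth cells, 0.105 for oxidative phosphorylation and 0.13 for cholesterol synthesis. ATCC PTA 6475 against PBS had 2404 genes or probes at an unadjusted p under 0.05 (14.3%), beside 6.56% for DSM 17938 against PBS.

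**Figure D5:**
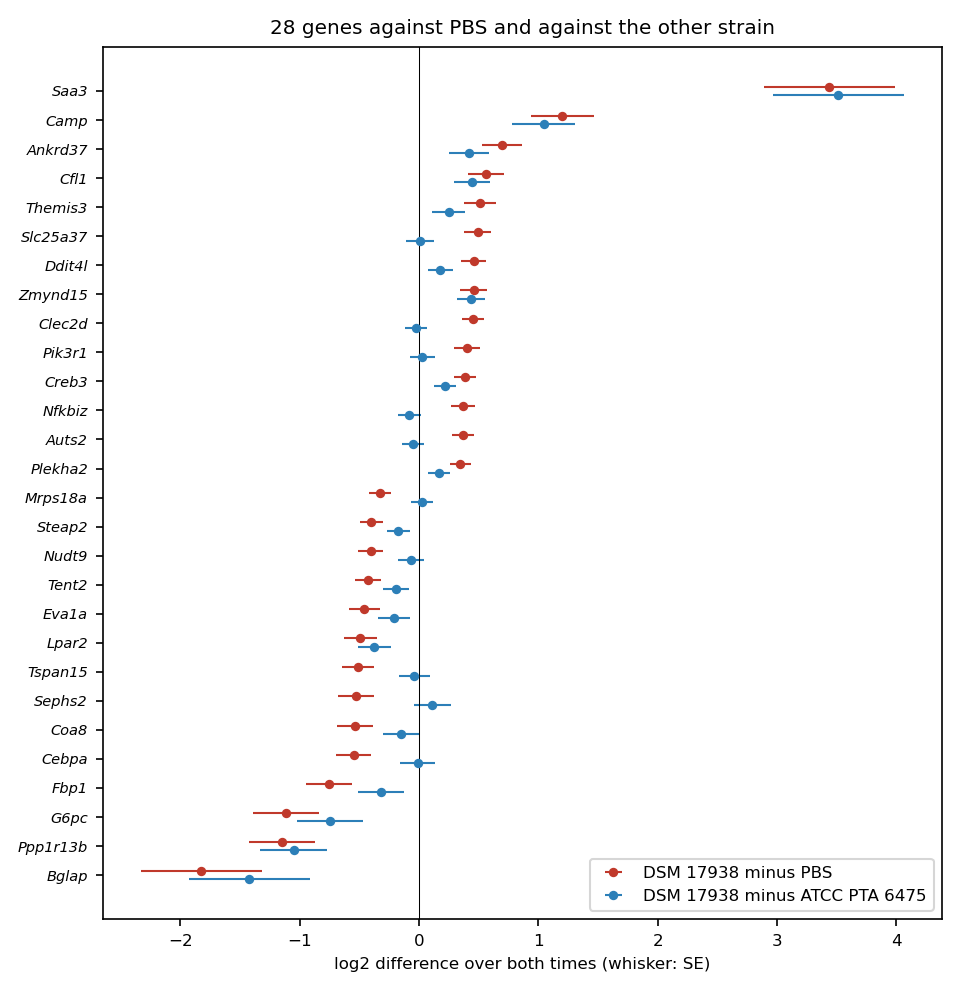
Difference of DSM 17938 from PBS (red) and from ATCC PTA 6475 (blue) over both times for the 28 named genes, in log2 units with standard errors. Saa3 lies at 3.44 and 3.51, whereas Clec2d lies at 0.45 against PBS and -0.03 against ATCC PTA 6475.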

How the data were processed

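Each probe's bead signal was deposited as an intensity on a linear scale and, per the file headers, without normalisation between arrays. Detection was deposited as a fraction from 0 to 1 that grows with signal and was used as 1 minus a detection p-value. GenomeStudio (version not given in the sources used here) is named in the submitters' processing notes. The authors' deposited table of log2 values served as an alternative.

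Signals were background-corrected, offset by 16, quantile-normalised and logged with neqc (limma 3.58.1, R 4.3.3), so every difference is relative to a distribution shared by all arrays. Probes with a detection p under 0.05 on at least 3 arrays were kept, 24506 of 45281. The brightest kept probe stood for a gene, giving 12804 genes and 4031 unnamed probes. Symbols came from the platform annotation, updated through gene IDs (34885 probes with 1 symbol, 18 with several, 10378 with none).

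One limma fit held all 18 arrays with 1 mean per group of agent and time (12 residual degrees of freedom). The main contrast was the mean of the differences at 4 h and 24 h, with Benjamini-Hochberg adjustment over all 16835 tested. The number of arrays limits the precision: the median standard error was 0.129 over both times and 0.183 at one time. The same fit was afterwards run on simulated data whose means and spreads came from the main fit.

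Genes were named by unadjusted p: the first 14 in each direction over both times, 10 and 10 among those with a p under 0.05 at each time, 8 and 8 for the difference between times, and up to 4 per list (all in lists of 8 or fewer), without predicted genes and clone names. All of the first are given, and of the lists a part. Rgp1, Ltf, Pla2g2a, Ticam1, Csf3r, Mmp9, Stfa1, Retnlg and Elane are named outside the rule. The members and the 47 lists (654 of 819 entries tested) were chosen with earlier results of these data known, and no list was tested as a set. Promoters came from RefSeq tables (GRCm38.p6), 1 per gene. The alternatives comprised another offset (50), scaling to a common median, the authors' log2 table, no or a stricter detection filter, a replicate block, the 12 arrays alone, array weights, a sex covariate, the mean of a gene's probes, a robust trended prior and leaving out each array.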

Additional observations from a re-analysis of the deposited data

How the results depend on the processing

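Over both times 0 genes passed an adjusted p of 0.05 in limma under any setting that left out no single array, including the replicate block, which also left 0 at single times, between times and between strains. Same-numbered DSM 17938 and PBS arrays correlated at -0.0472 to 0.3091 (4 of 6 pairs over 0.1, and 8 of 12 arrays closest to their own number). Any link between same-numbered arrays was not modelled in the main fit. With the replicate block 1647 genes or probes had an unadjusted p under 0.05 in limma over both times, beside 1104 in the main fit. Leaving out single arrays gave 0 to 1 genes over both times, 0 to 10 at 4 h, 0 to 2 at 24 h, 0 to 0 between times and 0 to 1 between strains. The 1 over both times was Saa3 without replicate 1 of DSM 17938 at 4 h, and Rgp1 (1.37, adjusted p 0.00541) without replicate 3 of PBS at 24 h. The 10 at 4 h came without that same DSM 17938 array. At 24 h Saa3 passed without it, 2 genes or probes without replicate 1 of DSM 17938 at 24 h, and Rgp1 without replicate 3 of PBS at 24 h. Between strains 1 gene, Saa3, passed under median scaling and without replicate 1 of DSM 17938 at 4 h. Genes with an unadjusted p under 0.05 at each time numbered 30 higher and 20 lower, against 8 and 5 under median scaling, 80 and 31 with the block, 54 and 43 without a detection filter and 48 and 35 with array weights; the cause was not tested. Saa1, near 0 with all arrays, ran from -0.0409 to 0.1215 as single arrays were left out, on both sides of 0. Of 82 genes followed over both times, 25 moved by over 1.5 times when 1 array was left out, none of them among the 28, and so did 43 of 47 list medians. The medians then ran from 0.125 to 0.2459 for acute phase genes, 0.0556 to 0.1428 for bacterial sensing, 0.0493 to 0.1413 for NF-kB, -0.2466 to -0.1045 for gluconeogenesis, -0.1289 to -0.0443 for arginine and proline synthesis, -0.2241 to -0.0768 for cholesterol synthesis, -0.123 to -0.0388 for oxidative phosphorylation and -0.1397 to -0.0297 for fatty acid oxidation.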
